A study of Mus musculus with 6 samples.

Results

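The Cyp4a genes encode cytochrome P450 enzymes that add a hydroxyl group to the far end, the omega carbon, of fatty acids. In the kidney they are found mainly in the proximal tubule, the segment that reabsorbs most of the filtrate. Some of them turn arachidonic acid into 20-HETE, a lipid mediator that constricts small vessels and alters sodium transport. The Cyp4a enzymes also start the breakdown of fatty acids to dicarboxylic acids. Several of them are targets of PPAR-alpha, the fatty acid-sensing nuclear receptor, and Cyp4a12a, the main 20-HETE synthase of the male mouse kidney, depends on androgen. The 6 Cyp4a genes described here, Cyp4a12a, Cyp4a12b, Cyp4a10, Cyp4a31, Cyp4a32 and Cyp4a14, were taken by name from the 54146 genes of the deposited table. They were chosen by their levels and log2 fold changes across these same G2APOL1, G0APOL1 and WT libraries, seen in an earlier analysis, so those values are given as a description. Where members are counted past the adjusted p threshold of the main test, the share of all genes past it stands beside the count. For counts at an unadjusted p or in other fits that share is not given. No count is evidence for a difference in the members.

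Kidney RNA was sequenced in bulk in 6 libraries, 2 per group. Human APOL1, which encodes apolipoprotein L1, was expressed from an inducible transgene described as cell-specific, in its risk form G2 in G2APOL1 mice and in its reference form G0 in G0APOL1 mice, and WT mice carried no transgene. The labels write EC before both transgenic genotypes without spelling it out, and do not name the driver, the inducing agent or the age at sampling. What all 3 groups share is the removal of a kidney at 6 weeks of age followed by a diet with 4% salt, so no group shows the Cyp4a genes without surgery and salt. Whether the libraries within a group stem from different animals is not stated, so each SD, SE and p-value reflects only how much the libraries vary, which may be technical.

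The genes lie within 322.557 kb of chromosome 4 (GRCm38, GENCODE M21). In order along the chromosome these are Cyp4a12a (ENSMUSG00000066071.6, chr4:115299046-115332815, plus strand), Cyp4a12b (ENSMUSG00000078597.2, chr4:115411624-115439034, plus), Cyp4a14 (ENSMUSG00000028715.2, chr4:115486200-115496142, minus), Cyp4a10 (ENSMUSG00000066072.13, chr4:115518264-115533649, plus), Cyp4a31 (ENSMUSG00000028712.12, chr4:115563649-115579015, plus) and Cyp4a32 (ENSMUSG00000063929.6, chr4:115600969-115621602, plus). None of their exonic bases is shared with another annotated gene. Their coding sequences fall into a pair of close copies, a set of 3 close copies and a single gene. Cyp4a12a and Cyp4a12b were 98.5% identical, differing at 23 of 1527 aligned bases. Cyp4a10 was 96.6% identical to Cyp4a31 (52 mismatches in 1530 bases) and 97.2% to Cyp4a32 (43 mismatches). Cyp4a14 was 75.7% to 76.5% identical to the others.

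How well reads can tell the copies apart differs between these sets. Of all stretches of 150 bases, the read length, in the coding sequence of Cyp4a12b, 32.1% also occur unchanged in Cyp4a12a, and the longest identical run is 342 bases. For Cyp4a31 against Cyp4a10 the share is 2.68%, with a longest run of 186 bases. The following 60-base stretches of coding exons, on the plus strand of GRCm38, show the difference, with capitals at each base that differs within a set. The first 3 are coding bases 106 to 165, in exon 1, at chr4:115518427-115518486 in Cyp4a10, chr4:115563822-115563881 in Cyp4a31 and chr4:115601080-115601139 in Cyp4a32.
Cyp4a10: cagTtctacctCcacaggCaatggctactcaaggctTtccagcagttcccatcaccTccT
Cyp4a31: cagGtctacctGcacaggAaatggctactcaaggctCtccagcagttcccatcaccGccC
Cyp4a32: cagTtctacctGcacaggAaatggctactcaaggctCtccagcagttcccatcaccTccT
The last pair are coding bases 624 to 683, which span the junction of exons 5 and 6, at chr4:115326309-115326681 in Cyp4a12a and chr4:115432561-115432934 in Cyp4a12b, with the intron left out.
Cyp4a12a: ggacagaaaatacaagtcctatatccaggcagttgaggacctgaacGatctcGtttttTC
Cyp4a12b: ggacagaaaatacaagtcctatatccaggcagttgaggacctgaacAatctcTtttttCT
These stretches were chosen because they hold the most differences of any 60 bases, 6 between Cyp4a10 and Cyp4a31 and 4 between Cyp4a12a and Cyp4a12b.

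Total counts per library ranged from 8490396 to 11800932, and transcripts of the mitochondrial genome took 12.6% to 21.1% of them, the most in WT replicate 2. Levels are given as CPM, edgeR's read count normalised to library size, and differences as log2 fold changes with their standard error from a fit of all 6 libraries. Of the 6 members, 5 passed the filter on low counts that left 14386 genes. Cyp4a32 did not pass. It had 5 reads in WT replicate 1, or 0.496 CPM, and 0 in the other libraries, where a count of 0 allows up to 3 reads, or 0.254 to 0.353 CPM. The values of the other 5 genes rest on 6.16 to 6415 reads per library.

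Cyp4a12a was the most abundant member in the G2APOL1 libraries, at 549.9 and 609.9 CPM, against 272 and 472 CPM in G0APOL1 and 482 and 350.5 CPM in WT. The G2APOL1 libraries lay above the other 4 libraries, while the ranges of G0APOL1 and WT overlapped. The log2 fold change was 0.48 ± 0.26 in G2APOL1 against WT, -0.16 ± 0.26 in G0APOL1 against WT and 0.64 ± 0.26 in G2APOL1 against G0APOL1 (± SE, n = 2 libraries per group, as below). The direction in G0APOL1 against WT depended on single libraries. It was 0.13 without G0APOL1 replicate 1 and 0.09 without WT replicate 1, but -0.60 without G0APOL1 replicate 2 and -0.37 without WT replicate 2. Without G0APOL1 replicate 2 the difference of G2APOL1 against G0APOL1 was 1.09, and without G0APOL1 replicate 1 it was 0.37. G2APOL1 against WT was 0.74 without WT replicate 1 and 0.28 without WT replicate 2.

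Cyp4a12b, whose protein is a near copy of that of Cyp4a12a, was scarce, with 2.83 and 2.67 CPM in G2APOL1, 10.5 and 13.8 CPM in G0APOL1 and 0.595 and 2.09 CPM in WT. Both G0APOL1 libraries lay above the other 4, and the G2APOL1 libraries lay above WT by less than the gap within WT. The log2 fold changes were 1.04 ± 0.64 in G2APOL1 against WT, 3.18 ± 0.65 in G0APOL1 against WT and -2.14 ± 0.61 in G2APOL1 against G0APOL1. These rest on few reads, 33.3 and 25.1 in G2APOL1, 98.3 and 117 in G0APOL1 and 6.16 and 18.6 in WT. Without WT replicate 1 the G0APOL1 difference from WT was 2.54 and the G2APOL1 difference 0.41. Without WT replicate 2 these were 4.32 and 2.20.

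In every library the values of Cyp4a12a and Cyp4a12b were not whole numbers but their sum was, as with 6414.69 and 33.31 reads in G2APOL1 replicate 1, which sum to 6448. Reads were thus divided between these copies before deposit. Cyp4a12b took 0.512% (95% Wilson interval 0.365% to 0.718%) and 0.436% (0.296% to 0.643%) of the pair's reads in G2APOL1, 3.70% (3.05% to 4.49%) and 2.85% (2.38% to 3.40%) in G0APOL1, and 0.123% (0.0565% to 0.269%) and 0.592% (0.379% to 0.923%) in WT. The intervals cover counting error only. The share was highest in the G0APOL1 libraries, and those of G2APOL1 lay between the WT libraries. Summed, the pair had 555 and 615 CPM in G2APOL1, 283 and 482 CPM in G0APOL1 and 483 and 352 CPM in WT. The log2 fold change of the sum was 0.49 ± 0.25 in G2APOL1 against WT, -0.12 ± 0.25 in G0APOL1 against WT and 0.61 ± 0.25 in G2APOL1 against G0APOL1. Like that of Cyp4a12a, the difference of the sum in G0APOL1 against WT changed sign with the library left out, between -0.55 without G0APOL1 replicate 2 and 0.17 without G0APOL1 replicate 1. The same fits gave 1.05 and 0.34 in G2APOL1 against G0APOL1, and G2APOL1 against WT was 0.29 without WT replicate 2.

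**Figure D1:**
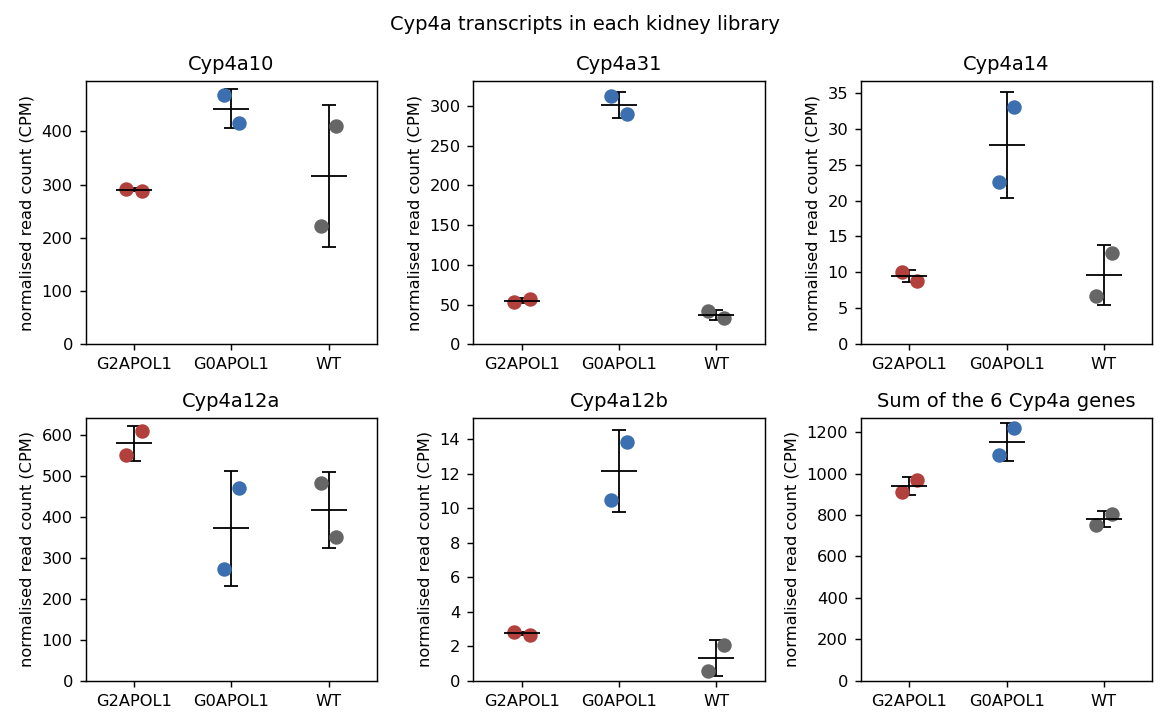
Normalised read counts (CPM, y axis, each panel from 0 on its own scale) of 5 Cyp4a genes and of the sum of all 6 in the G2APOL1, G0APOL1 and WT kidney libraries. Each point is a library, and the bar and whiskers are the mean ± SD of the 2 libraries of a group. Both G0APOL1 libraries of Cyp4a31 lie at 313 and 290.0 CPM, while the other 4 libraries lie between 32.5 and 57.0 CPM.

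Cyp4a31, a close copy of Cyp4a10, stood apart in the G0APOL1 libraries. It had 52.6 and 57.0 CPM in G2APOL1, 313 and 290.0 CPM in G0APOL1 and 41.7 and 32.5 CPM in WT. The lowest G0APOL1 library was above the highest of the other 4, and the G2APOL1 libraries lay above WT by a smaller step. The log2 fold change was 0.56 ± 0.19 in G2APOL1 against WT, 3.02 ± 0.20 (a fold of 8.11) in G0APOL1 against WT and -2.46 ± 0.20 in G2APOL1 against G0APOL1. When each library was left out in turn these ranged between 0.41 and 0.76, between 2.86 and 3.22, and between -2.51 and -2.33.

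Cyp4a10, a hydroxylase of fatty acids such as laurate that is induced through PPAR-alpha in the mouse, had 293 and 289 CPM in G2APOL1, 469 and 417 CPM in G0APOL1 and 222 and 411 CPM in WT. The G0APOL1 libraries were the highest, WT replicate 2 was close below them, and both G2APOL1 libraries lay between the WT libraries. The log2 fold change was -0.12 ± 0.25 in G2APOL1 against WT, 0.48 ± 0.25 in G0APOL1 against WT and -0.61 ± 0.25 in G2APOL1 against G0APOL1. WT replicate 2 set the sign of the difference from WT in G2APOL1, which was 0.40 without it and -0.49 without WT replicate 1. The difference of G0APOL1 from WT was 1.00 without WT replicate 2 and 0.11 without WT replicate 1.

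Cyp4a31 and Cyp4a10 had whole-number reads in 5 of the 6 libraries, and in WT replicate 2 they had 296.41 and 3739.59 reads. Within the set of 3 close copies, Cyp4a31 took 15.2% (95% Wilson interval 14.2% to 16.4%) and 16.5% (15.3% to 17.8%) of the reads in G2APOL1, 40.0% (38.9% to 41.1%) and 41.0% (39.8% to 42.3%) in G0APOL1, and 15.8% (14.4% to 17.2%) and 7.33% (6.57% to 8.18%) in WT. The G2APOL1 libraries and WT replicate 1 were alike in this share, while WT replicate 2 was lower and both G0APOL1 libraries were higher. Summed, Cyp4a10, Cyp4a31 and Cyp4a32 had 346 and 347 CPM in G2APOL1, 783 and 702 CPM in G0APOL1 and 265 and 442 CPM in WT. The sum in G0APOL1 was above that in every other library, with a log2 fold change of 1.07 ± 0.24 against WT. This was 0.75 without WT replicate 1 and 1.50 without WT replicate 2. G2APOL1 lay between the WT libraries at -0.03 ± 0.23, with -0.35 without WT replicate 1 and 0.40 without WT replicate 2. The difference of G2APOL1 against G0APOL1 was -1.10 ± 0.24.

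Cyp4a14, a fatty acid hydroxylase on the opposite strand that is strongly induced by PPAR-alpha ligands in the mouse, had 10.0 and 8.87 CPM in G2APOL1, 22.5 and 33.0 CPM in G0APOL1 and 6.74 and 12.6 CPM in WT. Both G0APOL1 libraries were above the other 4, and G2APOL1 lay inside the range of WT. The log2 fold changes were -0.03 ± 0.38 in G2APOL1 against WT, 1.52 ± 0.38 in G0APOL1 against WT and -1.55 ± 0.38 in G2APOL1 against G0APOL1. As with Cyp4a10, the sign of the G2APOL1 difference from WT changed with the WT library, with -0.41 without WT replicate 1 and 0.50 without WT replicate 2, and it was 0.07 without G2APOL1 replicate 2 and 0.06 with limma-voom. The G0APOL1 difference from WT was 1.14 without WT replicate 1 and 2.04 without WT replicate 2. It was 1.72 without G0APOL1 replicate 1 and 1.23 without G0APOL1 replicate 2.

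Per kb of exon, which allows levels to be compared between genes, Cyp4a12a, Cyp4a10 and Cyp4a31 were the 3 leading members in every library. In G2APOL1 Cyp4a12a led with 227 and 252 CPM per kb, followed by Cyp4a10 with 139 and 137 and Cyp4a31 with 21.0 and 22.7. In G0APOL1 Cyp4a10 led with 222 and 198 CPM per kb, and Cyp4a12a with 112 and 195 and Cyp4a31 with 125 and 116 changed places between the libraries. In WT the order of the first 2 also depended on the library, with Cyp4a12a at 199 and 145 CPM per kb, Cyp4a10 at 105 and 195 and Cyp4a31 at 16.6 and 13.0. Cyp4a14, at 2.59 to 12.7 CPM per kb, came next in every library. Cyp4a12b, at 0.248 to 5.78 CPM per kb, was below it in every library.

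**Figure D2:**
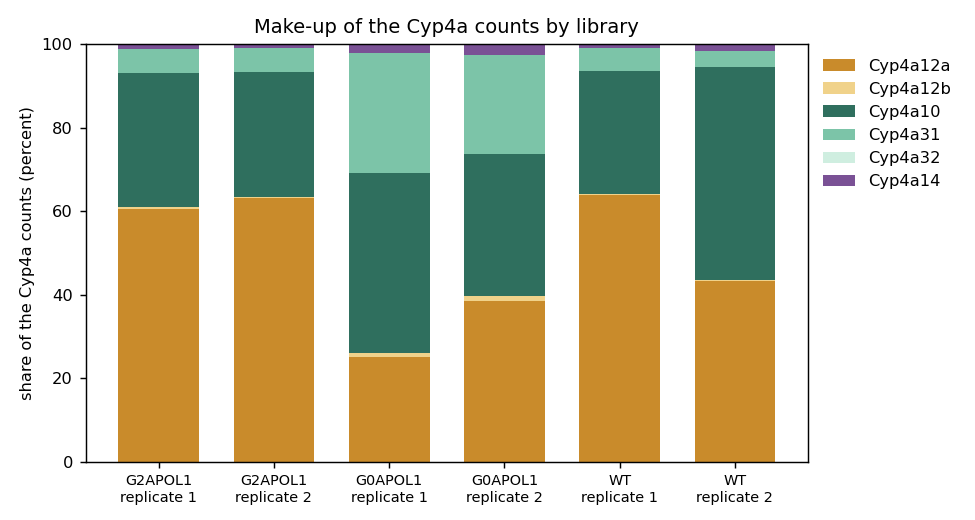
Share of the reads of the 6 Cyp4a genes (percent, y axis) that fell to each gene, for the 2 libraries of G2APOL1, G0APOL1 and WT (x axis). Cyp4a31 takes 28.8% and 23.7% in G0APOL1, against 4.02% to 5.90% in the other 4 libraries, and Cyp4a12a takes 60.6% and 63.1% in G2APOL1.

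All 6 genes together had 911 and 971 CPM in G2APOL1, 1089 and 1217 CPM in G0APOL1 and 754 and 807 CPM in WT. The 3 groups did not overlap. The log2 fold change of the sum was 0.27 ± 0.20 in G2APOL1 against WT, 0.56 ± 0.20 in G0APOL1 against WT and -0.29 ± 0.20 in G2APOL1 against G0APOL1. The make-up of the family also differed between libraries. For each read of Cyp4a10 there were 0.180 and 0.198 reads of Cyp4a31 in G2APOL1, 0.666 and 0.696 in G0APOL1 and 0.188 and 0.0791 in WT. For Cyp4a12a there were 1.88 and 2.11 in G2APOL1, 0.580 and 1.13 in G0APOL1 and 2.17 and 0.853 in WT, and the WT libraries were on opposite sides of 1 in this ratio, as were those of G0APOL1.

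With edgeR's quasi-likelihood test and an adjusted p under 0.05 over all 14386 genes, 0 of the 5 members passed in G2APOL1 against WT, where 8.19% of all genes did, 4.57% as higher and 3.62% as lower. DESeq2 and limma-voom also called 0. At an unadjusted p under 0.05 in edgeR's test were 1 member in G2APOL1 against WT, 3 in G0APOL1 against WT and 5 in G2APOL1 against G0APOL1. No share of all genes is given for these unadjusted counts. In G0APOL1 against WT, 3 members passed, all higher (Cyp4a12b, Cyp4a14 and Cyp4a31; 2 when just these 4 libraries were fitted, without Cyp4a14), and of all genes 8.17% passed, 4.48% as higher and 3.68% as lower. In G2APOL1 against G0APOL1, Cyp4a31 passed as lower, as did 0.306% of all genes, while 0.174% passed as higher and 0.480% either way. These shares are those of the fit of all 6 libraries, and none is given for the fit of just 4. Fits that left out a library keep 1 library in a group, and for them the members' differences are given above by size alone. The libraries of G2APOL1 and WT did not overlap for 3 members, all higher, and 27.1% of all genes were higher and 28.1% lower in this way. For G0APOL1 and WT this held for 4 members, all higher, and for 25.0% of all genes as higher and 24.3% as lower. For G2APOL1 and G0APOL1 it held for 1 member higher and 4 lower, and for 19.7% and 19.5% of all genes. The median log2 fold change of the 5 members was 0.48, 1.52 and -1.55 in the 3 comparisons, and that of all genes -0.04, 0.02 and -0.02. These counts describe genes picked for their values and support nothing about them, and the comparisons with WT share the WT libraries.

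**Figure D3:**
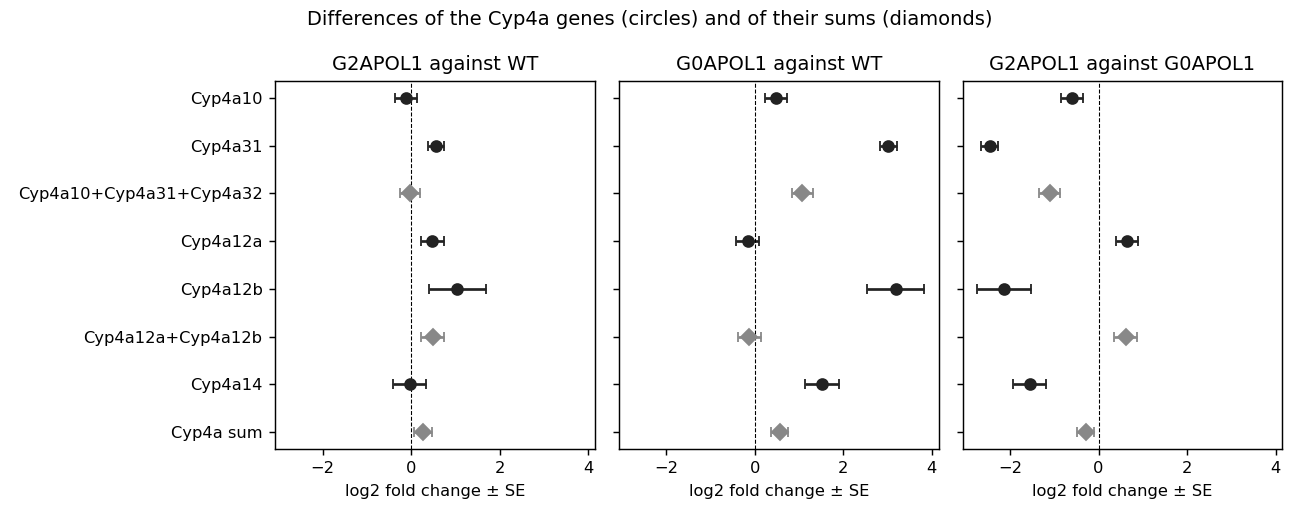
Log2 fold change ± SE (x axis) of 5 Cyp4a genes (circles) and of their sums over close copies and over all 6 genes (diamonds) in G2APOL1 against WT, G0APOL1 against WT and G2APOL1 against G0APOL1. Cyp4a31 lies at 3.02 in G0APOL1 against WT and at 0.56 in G2APOL1 against WT, while the sum of all 6 genes lies at 0.56 and 0.27.

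Most of 20 general markers of the proximal tubule, where Cyp4a enzymes are mainly found, were higher in both transgenic groups than in WT. List genes counted here and below as having risen or fallen had an adjusted p under 0.05. Of all tested genes 4.57% rose and 3.62% fell in G2APOL1 against WT. In G0APOL1 against WT 4.48% rose and 3.68% fell, and in G2APOL1 against G0APOL1 0.174% and 0.306%. The lists were written with earlier results of these libraries known. A fit that leaves out a library keeps 1 library in a group, and no share of all genes is given for such fits. A lower count or a lost call there, here and below, can reflect the smaller number of libraries as well as the library left out. Of 20 proximal tubule markers 16 rose and 0 fell in G2APOL1 against WT, with a median log2 fold change of 1.26, and 16 rose in G0APOL1 against WT, with a median of 1.17. The first count was 7 without either G2APOL1 library, and the second 9 when just the 4 libraries compared were fitted. Gatm, an enzyme of creatine synthesis, had 149 and 169 CPM in G2APOL1, 162 and 155 CPM in G0APOL1 and 21.0 and 29.2 CPM in WT. It rose by 2.66 ± 0.21 in G2APOL1 against WT (adjusted p = 1.7e-05) and by 2.66 ± 0.21 in G0APOL1 against WT (adjusted p = 2.4e-05). The endocytic receptor Lrp2 rose by 1.30 ± 0.21 (adjusted p = 0.00277) and by 1.45 ± 0.21 (adjusted p = 0.00139), and the bicarbonate transporter Slc4a4 by 1.57 ± 0.22 and 1.85 ± 0.22 in the same comparisons. In G2APOL1 against G0APOL1 the list had 1 call. Pck1, the gluconeogenic enzyme, fell to 1282 and 1359 CPM in G2APOL1, against 3023 and 4669 CPM in G0APOL1 (adjusted p = 0.0138), a call that was lost without G0APOL1 replicate 2, where its log2 fold change was -1.19. It was also lost without either G2APOL1 library, at -1.45 and -1.55.

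Summed over the 20 genes, proximal tubule markers had 22827 and 22701 CPM in G2APOL1, 25273 and 24425 CPM in G0APOL1 and 13605 and 10719 CPM in WT. In bulk tissue, fewer cells of a type and less RNA per cell cannot be told apart. Set against 1000 CPM of these markers, Cyp4a31 had 2.31 and 2.51 CPM in G2APOL1, 12.4 and 11.9 CPM in G0APOL1 and 3.07 and 3.03 CPM in WT, so that the G0APOL1 libraries stayed above the others and G2APOL1 lay below WT. Cyp4a12b, at 0.124 and 0.118 CPM in G2APOL1, 0.414 and 0.567 CPM in G0APOL1 and 0.0437 and 0.195 CPM in WT, was likewise highest in G0APOL1. For Cyp4a14 the G0APOL1 and WT libraries overlapped on this scale, with 0.439 and 0.391 CPM in G2APOL1, 0.891 and 1.35 CPM in G0APOL1 and 0.496 and 1.18 CPM in WT. Cyp4a10 had 12.8 and 12.7 CPM in G2APOL1, 18.6 and 17.1 CPM in G0APOL1 and 16.3 and 38.3 CPM in WT, so that its mean in G0APOL1 was above that in WT in CPM and below it here. Cyp4a12a on this scale had 24.1 and 26.9 CPM in G2APOL1, 10.8 and 19.3 CPM in G0APOL1 and 35.4 and 32.7 CPM in WT, highest in WT. The sum of all 6 members on this scale was 39.9 and 42.8 CPM in G2APOL1, 43.1 and 49.8 CPM in G0APOL1 and 55.4 and 75.3 CPM in WT. For the sum the transgenic groups thus lay above WT in CPM and below it per 1000 CPM of these markers. Summed markers of the straight part of the proximal tubule overlapped between the groups, at 6765 and 6125 CPM in G2APOL1, 8225 and 6602 CPM in G0APOL1 and 7117 and 4675 CPM in WT. The members were not set against these straight-part markers, so the orders above hold for the list of 20 markers only. Of these 9 genes 2 rose in G2APOL1 against WT (Slc7a13 and Slco1a6) and 3 in G0APOL1 against WT (these and Slc5a10). In G2APOL1 against WT both lost the call without either G2APOL1 library, at 0.97 to 1.25, and Slco1a6 was at 1.66 without WT replicate 1 and 0.70 without WT replicate 2. Slco1a6 lost it in G0APOL1 against WT without G0APOL1 replicate 1, at 1.23, and of the fits that left out a library, those of Slc7a13 and Slc5a10 passed only without WT replicate 1, with values of 0.46 to 1.02 in the others. Both also lost it with DESeq2's size factors in edgeR, at 0.81 and 0.63. The part of cell make-up in the Cyp4a differences was not tested.

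Endothelial markers were lower in the transgenic groups, with 7 of 10 falling in each comparison with WT and summed levels of 436 and 462 CPM in G2APOL1, 433 and 338 CPM in G0APOL1 and 830.4 and 922 CPM in WT. The count in G2APOL1 against WT was 1 without G2APOL1 replicate 1, 2 without G2APOL1 replicate 2 and 4 without WT replicate 2, and in G0APOL1 against WT it was 4 without G0APOL1 replicate 2. Emcn fell by 1.44 ± 0.20 in G2APOL1 against WT and fell by 1.73 ± 0.20 in G0APOL1 against WT. Of 8 macrophage markers 4 fell in each comparison with WT, among them C1qa and Lyz2. The counts were 2 in G2APOL1 against WT without either G2APOL1 library and 1 in G0APOL1 against WT without G0APOL1 replicate 2. Lyz2 has a near-identical copy, Lyz1, and lost its call in G0APOL1 against WT without G0APOL1 replicate 2, at -1.13. Summed macrophage markers had 122 and 126 CPM in G2APOL1, 134 and 139 CPM in G0APOL1 and 209.7 and 265 CPM in WT. Hepatocytes also make Cyp4a transcripts. Of 14 hepatocyte markers 6 had 0 reads in every library, among them Cps1, Cyp3a11 and Ahsg, and the summed level of the list was 22.8 and 25.7 CPM in G2APOL1, 44.0 and 40.6 CPM in G0APOL1 and 23.3 and 28.8 CPM in WT. In this list the fibrinogen gene Fga rose in G0APOL1 against WT, by 1.53 ± 0.39 (adjusted p = 0.0279), and lost the call without either G0APOL1 library, at 1.52 and 1.50, or without WT replicate 1, at 1.29, while 2 genes of the list passed without WT replicate 2 and with DESeq2. Of 7 adipocyte markers, whose summed level was 28.1 and 228 CPM in G2APOL1, 25.5 and 30.8 CPM in G0APOL1 and 123 and 118 CPM in WT, Fabp4 fell in G0APOL1 against WT, by 2.20 ± 0.41, a call lost when any library of these groups was left out, at -2.31 to -2.07.

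Among 33 PPAR-alpha targets outside the family, 30 were tested. In G2APOL1 against WT, 11 rose and 1 fell, and the median log2 fold change was 0.37. In G0APOL1 against WT, 8 rose and 0 fell, with a median of 0.52. These counts depended on the fit. With DESeq2 10 rose and 1 fell in G0APOL1 against WT. Counts in fits that kept 1 library in a group are not given for this list, because fewer libraries alone can lower them. With just the 4 libraries compared, 6 and 4 rose. The list includes enzymes of peroxisomal and mitochondrial fatty acid oxidation. The peroxisomal thiolase Acaa1b had 311 and 320.4 CPM in G2APOL1, 458 and 423 CPM in G0APOL1 and 189.6 and 199.7 CPM in WT, with no overlap between the groups. It rose by 0.70 ± 0.18 in G2APOL1 against WT (adjusted p = 0.0299) and by 1.18 ± 0.18 in G0APOL1 against WT (adjusted p = 0.00180), and lost the first of these calls without either G2APOL1 library, at 0.75 and 0.70. Acaa1a is a near-identical copy, at 0.73 ± 0.19 and 0.75 ± 0.19 in the same comparisons. It passed in both, but not without either G2APOL1 library or WT replicate 2, and in the second comparison also not without either G0APOL1 library, with values of 0.54 to 0.79. Acot4, a thioesterase of dicarboxylic acid esters, rose by 0.77 ± 0.20 in G2APOL1 against WT (adjusted p = 0.0341) and by 1.10 ± 0.20 in G0APOL1 against WT (adjusted p = 0.00520), and lost the first call without either G2APOL1 library or WT replicate 2, at 0.61 to 0.86. The peroxisomal bifunctional enzyme Ehhadh rose by 0.99 ± 0.25 in G2APOL1 against WT and by 1.18 ± 0.25 in G0APOL1 against WT.

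The carnitine carriers Slc22a5 and Slc25a20 rose in both comparisons with WT, Slc25a20 by 1.06 ± 0.21 in G2APOL1 against WT and by 0.77 ± 0.21 in G0APOL1 against WT. Slc22a5 had 185 and 167 CPM in G2APOL1, 154 and 176 CPM in G0APOL1 and 89.0 and 84.8 CPM in WT. The pantetheinase Vnn1 rose by 0.95 ± 0.21 in G2APOL1 against WT and by 0.79 ± 0.21 in G0APOL1 against WT. In G2APOL1 against WT, Slc22a5, Slc25a20 and Vnn1 lost the call without G2APOL1 replicate 1, at 0.98, 0.97 and 0.80, and Ehhadh without either G2APOL1 library, at 1.02 in both, or WT replicate 2, at 0.64. Ehhadh lost it in G0APOL1 against WT without G0APOL1 replicate 1, at 1.00. The calls of Slc25a20 and Vnn1 in that comparison were each lost in 5 of the 6 fits that left out a library, with values of 0.64 to 0.90, and held without WT replicate 2 for Slc25a20 and without WT replicate 1 for Vnn1. In G2APOL1 against G0APOL1 the median log2 fold change of the 30 targets was 0.00.

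The single call of that list in edgeR's test of G2APOL1 against G0APOL1 (2 in DESeq2 and in limma-voom) was Angptl4, an inhibitor of lipoprotein lipase, with 61.0 and 66.7 CPM in G2APOL1, 146 and 193 CPM in G0APOL1 and 114 and 197 CPM in WT. Its G2APOL1 libraries lay below all others, with a log2 fold change of -1.41 ± 0.25 against G0APOL1 (adjusted p = 0.0262) and of -1.28 ± 0.25 against WT (adjusted p = 0.00822). Without G2APOL1 replicate 1 it was -1.30 against G0APOL1 and -1.19 against WT, and neither passed. Against WT it was -0.82 without WT replicate 2, and passed. The call against G0APOL1 was also lost without G2APOL1 replicate 2, at -1.44, and without G0APOL1 replicate 2, at -1.19.

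**Figure D4:**
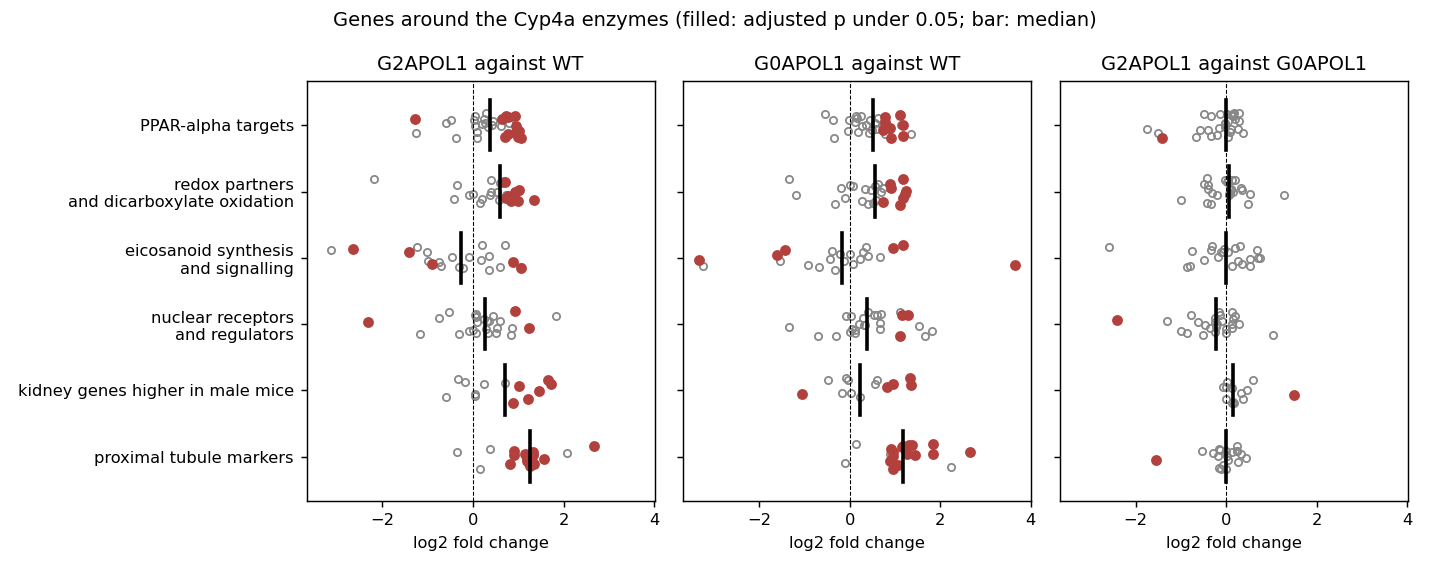
Log2 fold changes (x axis) of the tested genes of 6 lists (rows) in G2APOL1 against WT, G0APOL1 against WT and G2APOL1 against G0APOL1. Each point is a gene, filled where edgeR's adjusted p was under 0.05, and the black bar is the list's median. Proximal tubule markers have medians of 1.26, 1.17 and 0.01 in these comparisons, and the PPAR-alpha targets of 0.37, 0.52 and 0.00.

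Redox partners of the P450 enzymes and the enzymes that oxidise their products formed a list of 26 genes, of which 25 were tested. The list shares genes with the PPAR-alpha targets, among them Acaa1b, Acot4 and Ehhadh, so the counts of these lists are not separate. In G2APOL1 against WT 9 rose and 0 fell (median 0.60), in G0APOL1 against WT 8 rose and 0 fell (median 0.56), and in G2APOL1 against G0APOL1 edgeR's test called 0, as did limma-voom and DESeq2, with 3 at an unadjusted p under 0.05 (median 0.06). Without G2APOL1 replicate 1 edgeR's test of G2APOL1 against WT called 0 (10 at an unadjusted p under 0.05), and it called 1 without G2APOL1 replicate 2, 17 without WT replicate 1 and 4 without WT replicate 2. For G0APOL1 against WT it called 3 without G0APOL1 replicate 1 and 16 without WT replicate 1. Slc27a2, a very long-chain acyl-CoA synthetase that is also a proximal tubule marker, rose by 1.35 ± 0.24 in G2APOL1 against WT and by 1.22 ± 0.24 in G0APOL1 against WT. It lost the call without the first replicate of each transgenic group, at 1.36 and 1.03. Abcd3, a peroxisomal carrier of fatty acids, rose by 0.85 ± 0.22 in G2APOL1 against WT (adjusted p = 0.0341) and by 1.26 ± 0.22 in G0APOL1 against WT (adjusted p = 0.00454), and lost the first call without either G2APOL1 library or WT replicate 2, at 0.55 to 0.91. Aldh9a1, an aldehyde dehydrogenase, rose by 1.02 ± 0.21 in G2APOL1 against WT and by 0.91 ± 0.21 in G0APOL1 against WT. It lost the first call without either G2APOL1 library, at 1.01 and 1.09, and the second without G0APOL1 replicate 1, at 0.64. Por, the reductase that feeds electrons to all microsomal P450 enzymes, had 400.0 and 369 CPM in G2APOL1, 389 and 340.1 CPM in G0APOL1 and 338 and 242 CPM in WT, and did not pass (log2 fold change 0.41 ± 0.20 and 0.33 ± 0.20 against WT).

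Of 32 genes of eicosanoid synthesis and signalling, 22 were tested. In G2APOL1 against WT 2 rose and 3 fell (median -0.26), and in G0APOL1 against WT 3 rose and 3 fell (median -0.17). Without either G2APOL1 library 0 rose and 1 fell in G2APOL1 against WT, and 4 rose and 2 fell without WT replicate 1. Without G0APOL1 replicate 1, 1 rose in G0APOL1 against WT. The epoxygenases Cyp2j5 and Cyp2j13 rose by 1.06 ± 0.22 and 0.89 ± 0.21 in G2APOL1 against WT and by 1.17 ± 0.22 and 0.97 ± 0.21 in G0APOL1 against WT. Without either G2APOL1 library both lost the call in G2APOL1 against WT, at 1.08 and 1.10 for Cyp2j5 and at 0.92 in both fits for Cyp2j13. In G0APOL1 against WT, Cyp2j5 lost it without G0APOL1 replicate 1, at 0.97, and Cyp2j13 without G0APOL1 replicate 2, at 0.73. The prostaglandin enzymes Ptgds fell by 2.65 ± 0.46 and Ptgs1 fell by 1.41 ± 0.26 in G2APOL1 against WT. In G0APOL1 against WT Ptgds fell by 3.33 ± 0.48 and Ptgs1 fell by 1.60 ± 0.26. Ptgs1 lost its call in G2APOL1 against WT without either G2APOL1 library, at -1.41 and -1.36. The epoxide hydrolase Ephx1 fell by 0.91 ± 0.22 in G2APOL1 against WT and fell by 1.43 ± 0.22 in G0APOL1 against WT. It lost the first call without either G2APOL1 library, at -0.80 and -0.98, or WT replicate 1, at -0.70.

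Cyp2c23, an arachidonic acid epoxygenase named here after its values were seen, had 3.51 and 4.38 CPM in G2APOL1, 27.5 and 20.2 CPM in G0APOL1 and 0.397 and 3.41 CPM in WT. It rose by 3.66 ± 0.69 in G0APOL1 against WT (adjusted p = 0.00815; 0.0508 without G0APOL1 replicate 1, at 3.36), with 2.81 without WT replicate 1 and 5.87 without WT replicate 2, and was at -2.60 ± 0.64 in G2APOL1 against G0APOL1 (adjusted p = 0.187). Gpr75, a receptor for 20-HETE, had reads in WT replicate 2 alone, at 1.98 CPM, and was not tested.

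Among 27 nuclear receptors and regulators 26 were tested, with 2 higher and 1 lower in G2APOL1 against WT and 3 higher and 0 lower in G0APOL1 against WT. Of these, 1 was higher in G2APOL1 against WT without either G2APOL1 library. Without WT replicate 1, 4 were higher in G2APOL1 against WT and 7 in G0APOL1 against WT. Ppara itself had 11.5 and 6.09 CPM in G2APOL1, 7.47 and 27.9 CPM in G0APOL1 and 6.15 and 3.74 CPM in WT, with G0APOL1 replicate 2 far above the rest. It did not pass (log2 fold change 1.83 ± 0.60 in G0APOL1 against WT, adjusted p = 0.0874, and 0.83 ± 0.59 in G2APOL1 against WT). The proximal tubule regulator Hnf4a rose by 1.24 ± 0.21 in G2APOL1 against WT and by 1.11 ± 0.21 in G0APOL1 against WT, and the growth hormone receptor Ghr by 0.94 ± 0.22 and 1.29 ± 0.22. Hnf4a lost the call in G0APOL1 against WT without G0APOL1 replicate 1, at 0.89, and Ghr lost it in G2APOL1 against WT without either G2APOL1 library, at 0.93 and 1.00. The coactivator Ncoa2 rose by 1.16 ± 0.27 in G0APOL1 against WT, and was at 0.96 and did not pass without G0APOL1 replicate 2. Bcl6, a transcriptional repressor, had 8.14 and 6.20 CPM in G2APOL1, 21.3 and 55.8 CPM in G0APOL1 and 34.2 and 37.2 CPM in WT. It fell by 2.31 ± 0.40 in G2APOL1 against WT (adjusted p = 0.00515) and fell by 2.42 ± 0.41 in G2APOL1 against G0APOL1 (adjusted p = 0.0245). The call against G0APOL1 was lost without either WT library, at -2.41 and -2.40, without G2APOL1 replicate 2, at -2.19, and without G0APOL1 replicate 2, at -1.57. It was also lost with limma-voom, at -2.23, and with just the 4 libraries compared, at -2.42.

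Because Cyp4a12a depends on androgen, genes that differ by sex in the mouse kidney are given beside it. The Y-linked gene Ddx3y was read in every library, at 20.7 and 28.1 CPM in G2APOL1, 26.7 and 27.7 CPM in G0APOL1 and 27.1 and 28.9 CPM in WT. Xist, the RNA of the inactive X chromosome, had 4.46 CPM in WT replicate 1 and 0.427 CPM in G2APOL1 replicate 2, and 0 reads in the other libraries. Of 13 kidney genes known to be higher in male mice, 6 rose and 0 fell in G2APOL1 against WT (median 0.71), and 4 rose and 1 fell in G0APOL1 against WT (median 0.22). Among the 13 are Cyp4b1, also counted with the other Cyp4 genes, and Cyp2j13, also counted with the eicosanoid genes. Summed, the 13 genes overlapped between the groups, with 50578 and 45303 CPM in G2APOL1, 46076 and 39030 CPM in G0APOL1 and 51275 and 30657 CPM in WT. A single gene fell in G2APOL1 against WT without WT replicate 2 and with DESeq2. Without G0APOL1 replicate 1, 2 rose in G0APOL1 against WT, and without G0APOL1 replicate 2, 1 rose and 0 fell.

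Odc1, the enzyme that opens polyamine synthesis, had 1004 and 927 CPM in G2APOL1, 363 and 322 CPM in G0APOL1 and 468 and 232 CPM in WT. Like Cyp4a12a, it was highest in the G2APOL1 libraries, and it was the only gene of its list called in G2APOL1 against G0APOL1. It rose by 1.46 ± 0.28 in G2APOL1 against WT (adjusted p = 0.00766) and by 1.50 ± 0.28 in G2APOL1 against G0APOL1 (adjusted p = 0.0375). The call against G0APOL1 was lost when any of the 4 transgenic libraries was left out, with values of 1.41 to 1.66, and the gene has several near-identical pseudogenes. Cyp2e1 rose by 1.72 ± 0.24 in G2APOL1 against WT and by 1.35 ± 0.24 in G0APOL1 against WT, and the anion transporter Slco1a1 by 1.21 ± 0.21 in G2APOL1 against WT. Hsd11b1 fell by 1.05 ± 0.19 in G0APOL1 against WT, and was at -0.95 and did not pass without G0APOL1 replicate 2. Of 4 genes higher in female mice, the prolactin receptor gene Prlr rose by 2.67 ± 0.62 in G0APOL1 against WT (adjusted p = 0.0179), with 2.49 and 1.07 CPM in G2APOL1, 16.1 and 11.5 CPM in G0APOL1 and 3.07 and 1.21 CPM in WT. It lost the call without G0APOL1 replicate 1, at 2.36, or WT replicate 2, at 2.17.

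Of the 14 other Cyp4 genes 7 were tested, and Cyp4b1, whose enzyme prefers shorter fatty acids and foreign compounds, was the one that passed. It lies 3.12 kb past Cyp4a32 (chr4:115624725-115647723) and had 3504 and 3336 CPM in G2APOL1, 2587 and 2883 CPM in G0APOL1 and 1474 and 704 CPM in WT. It rose by 1.65 ± 0.30 in G2APOL1 against WT (adjusted p = 0.00543) and by 1.33 ± 0.30 in G0APOL1 against WT (adjusted p = 0.0160), and the second call was lost without either G0APOL1 library, at 1.36 and 1.26. The transgenic groups differed by 0.32 ± 0.29. On the other side of the cluster the nearest are Cyp4a29, at 44.5 kb, and Cyp4x1, at 165 kb. Cyp4a29 and Cyp4a30b had 0 reads in every library, and Cyp4x1 had 0.549 CPM in WT replicate 2 and 0 reads elsewhere. Within 500 kb of the outermost members 24 other protein-coding genes are annotated, and 13 were tested. Cyp4b1 was the only one of these to pass against WT in edgeR's test, while DESeq2 and limma-voom called 2 each in G0APOL1 against WT. The nearest on that side after it, Efcab14, at 116 kb, was at 0.03 in G2APOL1 against WT and 0.13 in G0APOL1 against WT. For G2APOL1 against G0APOL1 edgeR's test called 0 of the 13, as did limma-voom and DESeq2, with 0 at an unadjusted p under 0.05 and a median of 0.00.

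**Figure D5:**
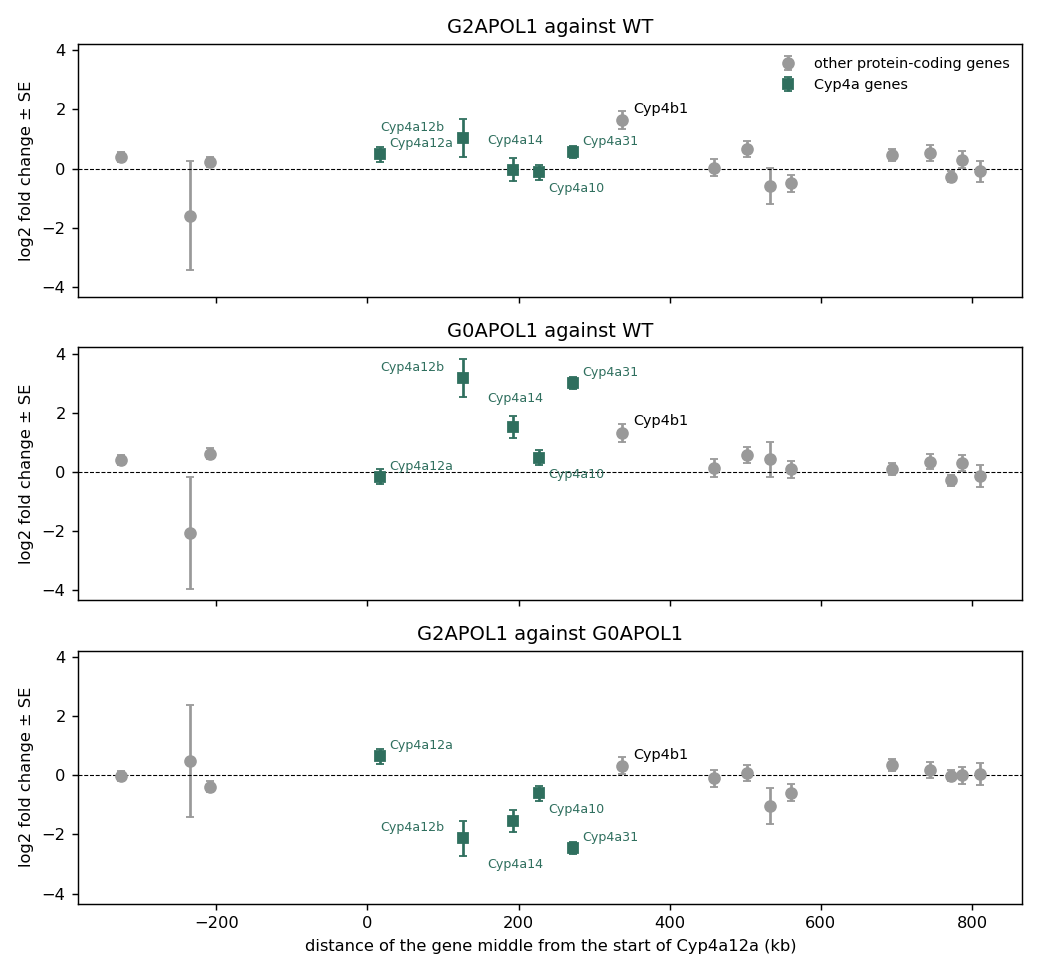
Log2 fold change ± SE (y axis) of the 5 tested Cyp4a genes (squares) and of 13 other tested protein-coding genes within 500 kb (circles), by the distance of the gene's middle from the start of Cyp4a12a (kb, x axis), for the 3 comparisons. In G2APOL1 against G0APOL1, Cyp4a31 lies at -2.46 and its neighbour Cyp4b1 at 0.32.

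The genes whose pattern over the 6 libraries was nearest to the sum of the 6 Cyp4a genes were found by the root mean square distance of centred log2 CPM over 13066 named genes. They were Rab5b (0.0560), Pxk (0.0599), Hdac2 (0.0648), Sema3b (0.0657), Itch (0.0693) and Got1 (0.0702), of which Got1 is an aspartate aminotransferase. Rab5b, a small GTPase of early endosomes, had 88.2 and 91.0 CPM in G2APOL1, 94.7 and 118 CPM in G0APOL1 and 68.0 and 73.2 CPM in WT. The distances are a description over 6 libraries and 3 groups, and many genes share so simple a pattern.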

How the data were processed

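The authors deposited expected counts per gene, estimated numbers of reads without scaling between libraries, and per the submitters' processing notes the build is mm10 and a tool listed is Cell Ranger ARC 2.0.2, whose role is not stated. The sources used here do not give the aligner or counter. Per the labels' protocols, total RNA from 10 mg of kidney with an integrity number of at least 6 was prepared with the NEBNext Ultra kit for 20M paired reads of 150 bases, and all libraries carry batch 1. Of 54146 identifiers, 54079 matched GENCODE M21 (GRCm38) by identifier without version and 67 did not. Expected counts were rounded. Low-count genes were removed by group with edgeR's filterByExpr, libraries were scaled with TMM, and all 6 libraries were fitted together in edgeR 4.0.16 (glmQLFit, robust, R 4.3.3), with 3 residual degrees of freedom and a common biological coefficient of variation of 0.315. The quasi-likelihood F test was two-sided, with Benjamini-Hochberg adjustment over 14386 genes and a threshold of 0.05. The SE of a log2 fold change was worked back from this test, as its absolute value divided by the square root of F. The sums of members replaced their rows in a separate fit of the same form. The edgeR fit of single genes was run on simulated counts with known changes in G2APOL1, read in G2APOL1 against WT only. The simulation did not cover the sums or the division of reads between copies. Coding sequences were compared with Biopython 1.88, and near-identical copies (95% identity or more, covering 50% or more of a transcript) were found with minimap2 2.31. Alternatives were other scaling, other filters, DESeq2 1.42.0, limma-voom (limma 3.58.1), a fit of just the compared libraries, a block for replicate number, removal of mitochondrial genes and removal of each library in turn.

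The members and the 14 gene lists (212 genes) were chosen with earlier results of these data known. Named genes are the members, a fixed set (among them Ppara, Por, Gpr75, Cyp4a29, Cyp4a30b, Cyp4b1, Cyp4x1, Xist and Ddx3y), up to 4 genes of smallest adjusted p under 0.05 per list and comparison, the 6 nearest patterns and the 2 nearest neighbours on each side. Of these, Slc22a8, Cd14, C1qb and 4 endothelial genes (Cdh5, Esam, Plvap and Tie1) are counted in their lists without values. Genes named outside the rule, after their values were seen, are Cyp2c23, Acaa1a, 3 hepatocyte markers at 0 reads, Lipo3, Slc16a1 and Tchh. Some genes that the rule names are not reported here.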

Additional observations from a re-analysis of the deposited data

How the results depend on the processing

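The log2 fold change of the sum kept its sign in all 14 alternatives, between 0.22 and 0.34 in G2APOL1 against WT, 0.49 and 0.62 in G0APOL1 against WT and -0.32 and -0.21 in G2APOL1 against G0APOL1. The count of members past the threshold in G2APOL1 against WT was 0, and 1 with the replicate block. In G0APOL1 against WT it was 3, and 2 with the 4 libraries compared. In G2APOL1 against G0APOL1 it was 1, and 3 without a filter on low counts, 2 with DESeq2 and 3 with the 4 libraries compared. Without the filter 20365 genes were tested, and 13518 with those 4 libraries. The share of all genes past the threshold in these other fits is not given here, so the changes in count say nothing about the members. Of the genes in the lists, 55 passed in G2APOL1 against WT (19 to 67 when a library was left out, 19 without G2APOL1 replicate 1 and 23 without G2APOL1 replicate 2), 55 in G0APOL1 against WT (34 to 70, 34 without either G0APOL1 library) and 4 in G2APOL1 against G0APOL1 (0 to 6, 0 without G2APOL1 or G0APOL1 replicate 2, 10 without a filter and 7 with DESeq2). With just the 4 libraries compared, calls were lost by Ehhadh, Slco1a6, Acaa1a, Acot4 and Abcd3 in G2APOL1 against WT, by Slc7a13, Slc5a10, Fga, Acaa1a, Slc25a20, Vnn1 and Aldh9a1 in G0APOL1 against WT and by Bcl6 in G2APOL1 against G0APOL1. Other lost calls outside the fits that left out a library were those of Slc7a13 and Slc5a10 with DESeq2's size factors, of Slc5a10 without mitochondrial genes (0.61) and of Bcl6 with limma-voom.

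The groups share replicate numbers, but nothing in the labels ties equal numbers to an animal or batch, and deviations of equal numbers from their group means correlated by 0.06 for G2APOL1 and WT, 0.10 for G0APOL1 and WT and 0.04 for G2APOL1 and G0APOL1. With the replicate block 69, 70 and 6 list genes passed in the 3 comparisons. With 2 libraries per group and 3 residual degrees of freedom, a p that misses the threshold does not show that levels were equal, and reads of Cyp4a12a and Cyp4a12b can be told apart over a part of their length only.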

Other observations

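Genes nearest in pattern to Cyp4a31 and to Cyp4a12a were looked up after their values were seen. Nearest to Cyp4a31 were Lipo3, a lipase-like gene, with a root mean square distance of 0.210 on the log2 scale, and Slc16a1, the monocarboxylate transporter MCT1, with 0.390. Lipo3 had 5.92 and 6.30 CPM in G2APOL1, 28.4 and 26.7 CPM in G0APOL1 and 5.16 and 4.18 CPM in WT. Slc16a1 had 4.80 and 4.70 CPM in G2APOL1, 19.0 and 17.4 CPM in G0APOL1 and 3.47 and 4.18 CPM in WT. For both, the G0APOL1 libraries lay above the other 4. Prlr, the prolactin receptor gene, was the sixth nearest, at 0.544. Nearest to Cyp4a12a was Tchh, with 19.4 and 19.7 CPM in G2APOL1, 9.71 and 13.1 CPM in G0APOL1 and 16.9 and 11.4 CPM in WT. These are descriptions over 6 libraries, with no test.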
